A study of Paeonia suffruticosa with 12 samples.

Results

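Polyvinyl pyrrolidone (PVP) given as the only anti-browning agent was compared with no agent (CK) in seedlings raised in culture from seed embryos of the peony "FengDan" (Paeonia suffruticosa). The comparison used 6 of the 12 RNA-seq libraries of the series, 3 labelled PVP and 3 labelled CK, and every difference is PVP minus CK. PVP medium held 2 g/L of the polymer and CK medium held no agent. The remaining libraries, 3 with 0.9 g/L activated carbon (AC) and 3 labelled AC and PVP with 0.9 g/L of AC and 2.5 g/L of PVP, entered the shared estimate of the spread and the last comparison. All embryos were excised by hand and germinated on the same basal medium, and the tissue of 10 embryos was pooled per sample, so that p-values rest on the spread between pools. The labels give mixed roots, stems and leaves, 30 days after rooting, for all 4 groups, whereas the study's methods name leaves and roots. The study also reports that CK and PVP seedlings germinated without rooting, so the labels do not match its account of these groups. In such mixed tissue, fewer cells of a type and less RNA per cell cannot be told apart.

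PVP is a water-soluble polymer that binds phenolic compounds. Phenolics leave the cut surfaces of an explant and are oxidised by polyphenol oxidases and peroxidases to quinones, which polymerise to brown pigments that harm the tissue. Peonies are rich in phenolics, and PVP is added to trap them before they are oxidised. The comparison with CK asks which transcripts differ when only the polymer is present.

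Of 130956 unigenes (genes of the de novo Trinity assembly), 58247 were tested, those counted (above 0) in 3 or more of all 12 libraries. The deposited files hold no gene names, and Swiss-Prot symbols were found for 769 of the tested unigenes in the study's supplementary tables of differentially expressed genes. Several of those tables were drawn from comparisons that share the PVP or CK libraries, so the named unigenes are not a neutral sample. Levels of a unigene are CPM, counts relative to the library size, after TMM scaling (TMM-scaled CPM), a scaling that sets the bulk of unigenes equal between libraries. They are not corrected for unigene length and are compared only between libraries. Differentially expressed genes (DEGs) passed edgeR's quasi-likelihood test at an adjusted p under 0.05 with a log2 fold change above 1 or below −1.

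The libraries held 20868648 to 25069044 counts in PVP and 19446758 to 22966921 in CK. Their make-up differed by group. The 10 most abundant unigenes of each library took 29.2% to 35.8% of the counts in PVP and 21.8% to 23.8% in CK. Between 12566 and 14060 unigenes exceeded 1 CPM of the library total in PVP and between 14987 and 16274 in CK, without overlap. TMM factors were 0.752 to 0.979 in PVP and 1.04 to 1.47 in CK, so that TMM raised the levels of PVP libraries relative to those of CK. Markers of green tissue and of root were few, and no marker of stems was looked at. PSBS (TRINITY_DN24027_c0_g1) and a PSBR unigene (TRINITY_DN32123_c2_g1), of photosystem II, were not counted in every one of the 6 libraries. Both pointed down in PVP and were not called under TMM (log2 fold changes −1.99 and −3.67). Most photosynthesis unigenes went the other way. Of 15, 11 had a log2 fold change above 0 under TMM, 10 lay entirely above CK and 2 entirely below. The light-harvesting protein CB21 (TRINITY_DN12560_c0_g1) was counted in each and was called higher in PVP (log2 fold change 3.62). MYB36 (TRINITY_DN3020_c0_g1), the regulator of the Casparian strip in the root endodermis, had 2.33, 4.61 and 5.13 TMM-scaled CPM in PVP and 7.01, 11.8 and 8.27 in CK (edgeR log2 fold change −1.17 ± 0.35, adjusted p = 0.152), and was called lower under library sizes alone. CSPL5 (TRINITY_DN2359_c0_g1), of the Casparian strip protein family, pointed the other way and was not called (log2 fold change 1.92 ± 0.49, adjusted p = 0.0861). It was the only 1 of 4 unigenes, Casparian strip proteins and MYB36, with a log2 fold change above 0. Their median was −0.68 under TMM and −1.10 under library sizes. CK replicate 2 held far more seed reserve transcripts than the other CK and PVP libraries, as described with those genes.

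With TMM scaling, 409 unigenes were DEGs (0.702% of those tested), of which 307 rose in PVP (0.527%) and 102 fell (0.175%). With library sizes as the only scaling, edgeR called 1145 DEGs (1.97%), of which 171 rose (0.294%) and 974 fell (1.67%). Rising unigenes thus made up 75.1% of the calls under TMM and 14.9% under library sizes. The median log2 fold change of all tested unigenes was −0.16 under TMM and −0.76 under library sizes, a shift of −0.61 that the choice of scaling alone introduced. No unigene was called in opposite directions. Both scalings called 146 unigenes higher and 102 lower, so all 102 falling DEGs of the TMM fit were also called under library sizes, whereas 161 of the rising ones were called under TMM alone. Among the 409 DEGs, all 3 PVP libraries lay above all 3 CK libraries for 303 of the 307 that rose and below them for all 102 that fell. Over all tested unigenes, 5.98% lay entirely above and 7.73% entirely below.

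**Figure D1:**
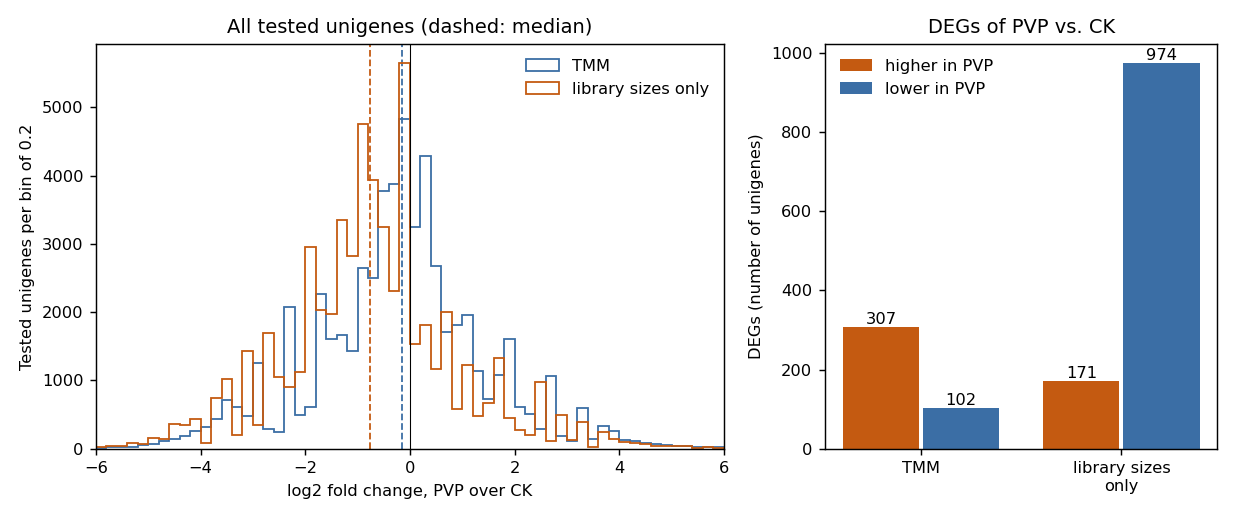
Left, numbers of tested unigenes by log2 fold change of PVP over CK (x axis, bins of 0.2; y axis, unigenes per bin) under TMM and under library sizes only, with dashed lines at the medians of −0.16 and −0.76. Right, numbers of DEGs in each direction, 307 higher and 102 lower under TMM against 171 higher and 974 lower under library sizes only.

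Named unigenes carried 101 of the 409 DEGs, 13.1% of all named unigenes, with 83 higher (10.8%) and 18 lower (2.34%). Under both scalings, 46 of the 83 and all 18 of the 18 were called. Of the 769 named unigenes, 265 had all PVP libraries above all CK libraries and 84 had all below. The median log2 fold change of the named unigenes was 0.71 under TMM and 0.075 under library sizes, where 48 were called higher and 77 lower. Counts and medians of the gene lists below are to be read against these values. The count of DEGs fell with any library left out. Leaving out CK replicate 3 left 6 DEGs, CK replicate 1 left 54, CK replicate 2 left 293, and leaving out PVP replicate 1, 2 or 3 left 45, 164 or 28. Among the named unigenes, 1 rose and 0 fell without CK replicate 3, 13 and 2 without CK replicate 1, and 56 and 11 without CK replicate 2, against 16 and 0, 44 and 1, and 8 and 0 without PVP replicates 1, 2 and 3. All 409 DEGs kept their direction in each of these fits, in which one group had 2 libraries.

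Histone transcripts were higher in PVP. Histones package DNA into nucleosomes, and most of their genes are transcribed when cells replicate their DNA. Of 11 histone unigenes, 7 rose under TMM, 6 rose under library sizes and none fell, with a median log2 fold change of 2.75 under TMM and 2.19 under library sizes. Among all 769 named unigenes, 83 rose under TMM and 48 under library sizes, with medians of 0.71 and 0.075. The linker histone H1 (TRINITY_DN2803_c0_g1) reached 87.3, 172 and 73.5 TMM-scaled CPM in the 3 PVP libraries against 7.49, 22.5 and 17.4 in the 3 CK libraries. The lowest PVP library was above the highest CK library, and the log2 fold change was 2.81 ± 0.43 (SE, n = 3 and 3, edgeR adjusted p = 0.0204). A second H1 unigene (TRINITY_DN1123_c0_g1) went from 14.2, 28.4 and 19.1 in CK to 131, 117 and 85.6 in PVP, again without overlap (log2 fold change 2.44 ± 0.42, adjusted p = 0.0217). Core histone H3 (H32, TRINITY_DN10393_c1_g1) stood at 128, 28.9 and 71.2 in PVP and 8.201, 3.37 and 2.76 in CK. Its PVP libraries spread over more than those of H1, yet all were above CK (log2 fold change 3.98 ± 0.71, adjusted p = 0.0262). Core histone H4 (H41, TRINITY_DN9017_c0_g2) had 105, 44.7 and 53.02 in PVP against 15.04, 12.9 and 11.4 in CK (log2 fold change 2.37 ± 0.40, adjusted p = 0.0217). The variant H2AX (H2AXA, TRINITY_DN10362_c0_g1), which marks DNA breaks when phosphorylated, was not called and its groups overlapped, with 37.03, 37.9 and 53.02 in PVP and 56.3, 14.7 and 51.03 in CK. One H41 unigene had no count in any of the 6 libraries.

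A histone chaperone went the other way. NAP1C (TRINITY_DN1430_c0_g3), named after a nucleosome assembly protein that carries histones H2A and H2B, fell from 457, 447 and 511 TMM-scaled CPM in CK to 128, 95.04 and 169 in PVP. All CK libraries lay well above all PVP libraries (log2 fold change −1.85 ± 0.37, edgeR adjusted p = 0.0389, and −2.48 under library sizes). The number of histone unigenes called was 2 without CK replicate 1, 3 without CK replicate 2, 0 without CK replicate 3, and 1, 6 and 1 without PVP replicates 1, 2 and 3.

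Part of the photosynthetic apparatus was higher in PVP as well. Of 15 unigenes named after photosynthesis proteins, 5 rose and none fell under TMM, and 4 rose and 2 fell under library sizes. For named unigenes as a whole, 10.8% were called higher under TMM. CB21 names a chlorophyll a-b binding protein of the light-harvesting antenna, encoded in the nucleus. One CB21 unigene (TRINITY_DN12560_c0_g1) reached 56.3, 42.6 and 29.3 TMM-scaled CPM in PVP against 2.32, 3.55 and 4.54 in CK, with the lowest PVP library far above the highest CK library (log2 fold change 3.62 ± 0.64, edgeR adjusted p = 0.0249). Another from the same Trinity cluster (TRINITY_DN12560_c2_g1) had 17.1, 13.8 and 8.63 in PVP and 0.357, 1.17 and 0.737 in CK (log2 fold change 4.15 ± 0.67). A more abundant CB21 unigene (TRINITY_DN52998_c0_g1) varied widely within both groups, which did not overlap, and was not called, with 158, 87.4 and 271 in PVP and 41.5, 13.02 and 77.7 in CK (adjusted p = 0.102). The 2 PSBR unigenes, of a small photosystem II subunit, pointed down at under 3 TMM-scaled CPM in every CK and PVP library, with log2 fold changes of −2.44 and −3.67 that did not pass under TMM. They were the 2 that fell under library sizes, where the log2 fold changes were −3.01 and −4.24.

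The plastid genome encodes PSBA, the D1 protein at the core of photosystem II, which is replaced continually in the light. PSBA (TRINITY_DN646_c2_g1) stood at 29.2, 21.7 and 57.3 TMM-scaled CPM in PVP and 1.01, 2.65 and 3.14 in CK. Each PVP library was several times higher than any CK library (log2 fold change 4.0 ± 0.54, edgeR adjusted p = 0.0172). PSBM, a small subunit of the same photosystem, rose in both of its unigenes, and TRINITY_DN3846_c0_g2 had 151, 105 and 146 in PVP against 16.8, 33.01 and 27.4 in CK. MATK, the maturase that splices plastid introns, also rose in both unigenes, with 28.6, 19.2 and 32.8 in PVP and 4.19, 3.099 and 6.29 in CK for TRINITY_DN5051_c3_g3 (log2 fold change 2.57 ± 0.39). The mitochondrial ATP synthase subunit ATP9 (TRINITY_DN65850_c1_g1) had 47.2, 54.4 and 41.01 in PVP and 7.19, 9.97 and 8.93 in CK, the smallest p of any named unigene that rose (log2 fold change 2.45 ± 0.32, adjusted p = 0.0172).

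A list of 13 unigenes of organelle genomes and ribosomal DNA, put together after these values were seen, held 8 DEGs that rose under TMM, 5 under library sizes, and none that fell. Not all of them were called. RPOC2, a subunit of the plastid RNA polymerase, had 350.1, 297 and 525 TMM-scaled CPM in PVP and 677, 759 and 1721 in CK (TRINITY_DN252_c0_g1, adjusted p = 0.229), with every PVP library below every CK library. ATPB, of the plastid ATP synthase, overlapped between the groups at 105, 68.7 and 96.7 in PVP and 43.1, 71.1 and 83.9 in CK (TRINITY_DN39019_c0_g1). Summed over the list, these transcripts took 1643 to 2948 CPM of the library total in PVP and 1696 to 3451 in CK, which overlap. Photosynthesis unigenes called numbered 1, 5 and 1 without CK replicates 1, 2 and 3, and 1, 3 and 2 without PVP replicates 1, 2 and 3.

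**Figure D2:**
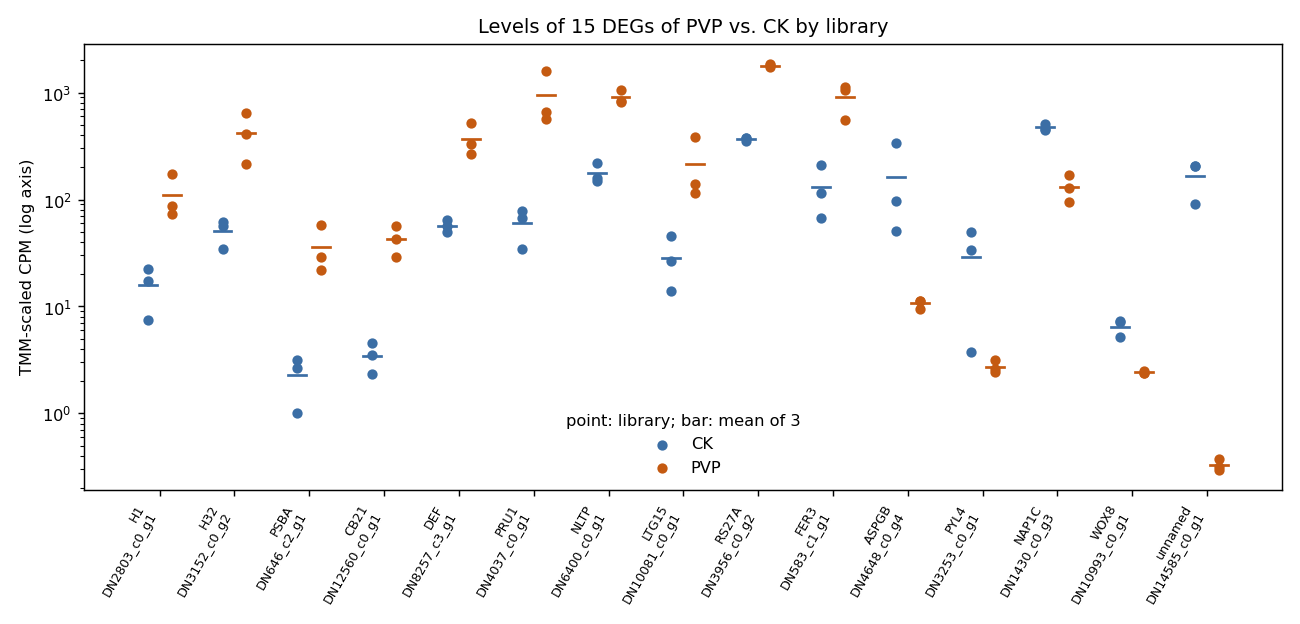
TMM-scaled CPM on a log axis (y) in the 3 CK and 3 PVP libraries of 15 DEGs (x, symbol and unigene), with a bar at each group mean. From H1 to FER3 every PVP point lies above every CK point, and from ASPGB to the unnamed TRINITY_DN14585_c0_g1 every PVP point lies below, with PYL4 closest to overlap at 3.13 in PVP replicate 2 and 3.77 in CK replicate 2.

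Ubiquitin, the small protein attached to others to mark them, often for breakdown by the proteasome, is made from polyubiquitin genes and from fusions with ribosomal proteins. Of 10 ubiquitin unigenes, 7 rose under TMM, 5 rose under library sizes and none fell, with a median log2 fold change of 2.07 under TMM. The share of all named unigenes called higher under TMM was 10.8%. UBIQ (TRINITY_DN19643_c0_g1) went from 8.08, 13.2 and 11.02 TMM-scaled CPM in CK to 59.9, 76.9 and 101 in PVP (log2 fold change 2.88 ± 0.46, edgeR adjusted p = 0.0204). UBIQP (TRINITY_DN8526_c2_g1) had 18.03, 16.5 and 30.1 in PVP and 5.47, 5.703 and 4.58 in CK, likewise with no overlap (log2 fold change 2.03 ± 0.33). Ubiquitin repeats are nearly identical between genes, so the division of reads among these unigenes is uncertain. Their summed level avoids that division and was 731 to 933 CPM of the library total in PVP against 269 to 294 in CK, without overlap.

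The ubiquitin fused to ribosomal protein S27a rose too. R27AA (TRINITY_DN44624_c0_g1) stood at 253, 238 and 225 TMM-scaled CPM in PVP and 53.6, 44.4 and 43 in CK, with little spread in either group (log2 fold change 2.35 ± 0.37, edgeR adjusted p = 0.0204). A second R27AA unigene (TRINITY_DN11891_c2_g1) had 23.1, 17.4 and 29.3 in PVP and 5.65, 5.12 and 5.2 in CK. The most abundant of this kind, RS27A (TRINITY_DN3956_c0_g2, chosen after its values were seen), had 1728, 1791 and 1839 in PVP against 377, 378 and 353 in CK. Of 7 unigenes of cytosolic ribosomal and ubiquitin-fusion ribosomal proteins, listed after the values were seen, 5 rose and none fell under TMM, and 3 rose and 1 fell under library sizes. The list includes ubiquitin fusions, so its count is not separate from theirs. The proteasome-linked deubiquitinase UBP6 (TRINITY_DN1358_c0_g1), which takes ubiquitin off proteins at the proteasome, fell from 21.01, 34.4 and 28.3 in CK to 9.65, 10.02 and 9.63 in PVP (log2 fold change −1.51 ± 0.29, adjusted p = 0.0318). SKP1A, the core adaptor of SCF ubiquitin ligases in Arabidopsis, had 117 counts over the 3 PVP libraries and 1 over the 3 CK libraries (TRINITY_DN50579_c0_g1), a ratio of 106 with a 95% counting interval of 18.7 to 4238. Of the 10 ubiquitin unigenes, 0, 7 and 0 were called without CK replicates 1, 2 and 3, and 2, 2 and 0 without PVP replicates 1, 2 and 3.

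Part of the defensins, small cysteine-rich secreted peptides of which many act against fungi, were higher in PVP. Of 10 defensin unigenes, 4 rose under TMM and the count was 4 under library sizes, and none fell, while 3 had a negative log2 fold change. By comparison, 10.8% of all named unigenes were called higher under TMM. The summed level of the defensins overlapped, at 946 to 1196 CPM of the library total in PVP and 332 to 4935 in CK. DEF (TRINITY_DN8257_c3_g1) went from 49.9, 64.1 and 56.5 TMM-scaled CPM in CK to 264, 521 and 329.9 in PVP (log2 fold change 2.71 ± 0.40, edgeR adjusted p = 0.0202). DEF (TRINITY_DN6173_c1_g1) had 175, 267 and 223 in PVP and 26.1, 43.6 and 44.2 in CK, and DEF (TRINITY_DN26079_c0_g1) had 82.98, 129 and 97.2 and 17.4, 19.5 and 20.3. For all 3 the lowest PVP library was more than 3 times the highest CK library. A pair of DEF unigenes followed the seed reserve transcripts of CK replicate 2 instead, as TRINITY_DN1108_c0_g1 had 78.2, 3206 and 10.2 in CK and 52.7, 34.5 and 82.6 in PVP. Snakin and GASA peptides, another cysteine-rich family, held no DEG among 8 under either scaling, with a median log2 fold change of −0.70 under TMM and −1.24 under library sizes. At an unadjusted p under 0.05, edgeR had 2 of them higher and 2 lower, and DESeq2 on the 2 groups called 1 higher and 1 lower. Defensins called numbered 1, 4 and 0 without CK replicates 1, 2 and 3, and 2, 2 and 1 without PVP replicates 1, 2 and 3.

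PRU1 names a Bet v 1 family protein, a group of pathogenesis-related proteins of the PR-10 class that includes fruit and pollen allergens. PRU1 (TRINITY_DN4037_c0_g1) stood at 653, 571 and 1598 TMM-scaled CPM in PVP and 34.2, 77.6 and 67.3 in CK. The lowest PVP library exceeded the highest CK library by more than 7 times (log2 fold change 3.98 ± 0.61, edgeR adjusted p = 0.0204). It was the only one of 6 Bet v 1 unigenes called under TMM. Under library sizes 1 rose and 1 fell, and DESeq2 on all libraries called 4 higher and 1 lower. A more abundant PRU1 (TRINITY_DN3256_c0_g1) had 948, 1173 and 2381 in PVP and 521, 138 and 261 in CK without overlap, but its CK libraries spread widely and it was not called (adjusted p = 0.205). NHL1 (TRINITY_DN4957_c0_g1), of a family related to a protein needed for disease resistance in Arabidopsis, rose from 9.81, 6.74 and 9.12 in CK to 30.7, 52.7 and 41.9 in PVP (log2 fold change 2.29 ± 0.37).

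Lipid transfer proteins carry lipids to the cell surface, where cutin, suberin and wax are built, and some act in defence. Of 33 non-specific lipid transfer protein unigenes, 2 rose and none fell under either scaling, while 22 had all PVP libraries above all CK libraries and the median log2 fold change was 1.86 under TMM and 1.32 under library sizes. Of the 769 named unigenes, 265 lay entirely above, and their medians as a whole were 0.71 and 0.075. NLTP (TRINITY_DN6400_c0_g1) went from 149.5, 220.2 and 159.7 TMM-scaled CPM in CK to 1054, 827 and 819 in PVP (log2 fold change 2.35 ± 0.43, edgeR adjusted p = 0.028). NLTP2 (TRINITY_DN1166_c1_g1) had 156, 83.2 and 181 in PVP against 25.97, 15.7 and 13 in CK (log2 fold change 2.94 ± 0.48). Without CK replicate 2, 9 of the 33 passed, and without CK replicate 3 or PVP replicates 1 or 3 none did. Of 11 unigenes for lipid transfer proteins held to the membrane by a GPI anchor, 2 rose, LTG15 (TRINITY_DN10081_c0_g1) from 26.6, 14.1 and 45.3 in CK to 116, 138 and 385 in PVP and LTG16 (TRINITY_DN5866_c0_g1) from 7.07, 8.13 and 12.5 to 21.6, 22.4 and 86.7. In both, PVP replicate 3 was the highest library. Under library sizes LTG15 was called (adjusted p = 0.0322) and LTG16 was not (adjusted p = 0.0733).

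The enzymes that build the barriers these proteins serve did not pass the test. None of 18 suberin, cutin and wax enzymes was called in either direction under either scaling, with a median log2 fold change of 0.93 under TMM and 0.21 under library sizes. At an unadjusted p under 0.05, edgeR had 8 of them higher and 0 lower, against 301 of the 769 named and 3235 of the 58247 tested unigenes higher, and DESeq2 called 0 on the 2 groups and 1 on all libraries. The GDSL esterases, a family that includes cutin and suberin polymerising enzymes, held 2 DEGs among 11. GDL71 (TRINITY_DN6397_c0_g1) had 14.4, 7.11 and 6.06 TMM-scaled CPM in PVP and 2.62, 2.69 and 1.32 in CK, a rise called under TMM and not under library sizes (adjusted p = 0.0245 and 0.0758).

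PVP binds products of the phenolic pathway. Its lists, with 0 of 5, 1 of 8 and 1 of 11 unigenes called higher under TMM, are to be read against the 10.8% of named unigenes called higher. Phenylalanine ammonia-lyase (PALY) makes cinnamic acid, cinnamate 4-hydroxylase (TCMO) hydroxylates it, and 4-coumarate-CoA ligase (4CL2) activates the product for lignin and flavonoids. None of 5 unigenes for these entry steps was called by edgeR, although 4 had all PVP libraries above all CK libraries and an unadjusted p under 0.05, and DESeq2 called 1 on the 2 groups and 2 on all libraries. Of the 769 named unigenes, 265 lay entirely above, and 301 were higher at an unadjusted edgeR p under 0.05. PALY (TRINITY_DN2415_c0_g1) had 148, 152 and 229 TMM-scaled CPM in PVP and 99.4, 53.5 and 107 in CK (log2 fold change 1.02 ± 0.31, adjusted p = 0.161, and 0.34 under library sizes). 4CL2 (TRINITY_DN2755_c0_g1) had 15.4, 17.9 and 20.3 in PVP and 10.3, 7.54 and 8.54 in CK (log2 fold change 1.02 ± 0.28, adjusted p = 0.11). The log2 fold changes of these 4 unigenes were 0.76 to 1.02 under TMM and 0.13 to 0.36 under library sizes.

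Further along the lignin branch, 1 of 8 unigenes rose. Caffeoyl shikimate esterase (CSE, TRINITY_DN9013_c0_g1), which frees caffeic acid on the way to monolignols, had 20.1, 32.5 and 24.3 TMM-scaled CPM in PVP and 5.02, 8.94 and 7.33 in CK, with no overlap (log2 fold change 1.85 ± 0.35, edgeR adjusted p = 0.032). It was not called under library sizes (adjusted p = 0.0613), where another CSE unigene (TRINITY_DN17083_c0_g1) was called lower, with 5.29, 4.61 and 8.19 in PVP and 6.33, 21.9 and 10.1 in CK. The cinnamyl alcohol dehydrogenase CADH1 (TRINITY_DN29264_c0_g2), the last reductase before the monolignols, had 68.4, 178 and 199 in PVP and 33.9, 41.4 and 37.1 in CK and just missed the threshold (adjusted p = 0.0527). DESeq2 on the 2 groups called 5 of the 8 branch unigenes higher. Class III peroxidases, secreted enzymes that couple monolignols and oxidise phenolics, held 1 DEG among 11, PER72 (TRINITY_DN225_c0_g1), with 49.3, 39.2 and 72.4 in PVP and 22.1, 5.703 and 14.2 in CK, which was called under TMM alone, and DESeq2 called 4 of the 11 higher. None of 5 laccases and none of 3 flavonoid enzymes was called under either scaling, with unadjusted p under 0.05 for 1 and 0 of them and no call by DESeq2.

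Polyphenol oxidase, the enzyme most directly tied to browning, overlapped between the groups. PPO (TRINITY_DN5115_c0_g1) stood at 24.97, 119 and 86.03 TMM-scaled CPM in PVP and 44.1, 83.4 and 56.1 in CK. PVP replicate 1 was the lowest and PVP replicate 2 the highest of the 6 libraries. The log2 fold change was 0.33 ± 0.44 under TMM (edgeR adjusted p = 0.8), −0.33 under library sizes and −0.14 without PVP replicate 2.

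Enzymes that attach sugars to small molecules, phenolics among them, rose in part. Of 13 UDP-glycosyltransferase unigenes, 5 rose under TMM and 1 under library sizes, and none fell. Over all named unigenes, 10.8% rose under TMM. U91A1 (TRINITY_DN1090_c0_g1) went from 10.9, 7.32 and 11.2 TMM-scaled CPM in CK to 38.9, 43.3 and 29.4 in PVP (log2 fold change 1.93 ± 0.32, edgeR adjusted p = 0.0206). U496H (TRINITY_DN885_c4_g1) had 44.1, 14.6 and 28.1 in PVP and 4.87, 2.83 and 5.899 in CK, and was the 1 called under both scalings (adjusted p under library sizes 0.0444). U496G (TRINITY_DN14977_c0_g2) had nearly the same value in each library, 44.9, 14.6 and 28.2 and 5.17, 2.87 and 6.75, so that the split of reads between these 2 unigenes is uncertain. The glutathione transferases, which conjugate glutathione to reactive compounds, held 1 DEG among 7. That unigene, GSTXC (TRINITY_DN22013_c0_g1), had 248 counts in PVP and 1 in CK, a ratio of 226 with a 95% counting interval of 40.1 to 8943, but its PVP libraries ran from 0.0625 to 9.71 TMM-scaled CPM. UDP-glycosyltransferases called numbered 0, 1 and 0 without CK replicates 1, 2 and 3, and 0, 4 and 1 without PVP replicates 1, 2 and 3.

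Metal handling proteins held 3 DEGs among 13 under TMM, all higher in PVP, and 1 higher and 1 lower under library sizes. These counts stand beside 10.8% of all named unigenes called higher under TMM. Copper is the cofactor of polyphenol oxidases and laccases, and ferritin stores iron in plastids. The copper chaperone CCH rose in both of its unigenes. TRINITY_DN48673_c0_g1 had 19.9, 48.5 and 42.02 TMM-scaled CPM in PVP and 7.79, 4.13 and 5.86 in CK (log2 fold change 2.63 ± 0.41, edgeR adjusted p = 0.0204). The more abundant TRINITY_DN9143_c0_g1 had 1688, 2299.9 and 2898 in PVP and 456, 616 and 608 in CK (log2 fold change 2.03 ± 0.45, adjusted p = 0.0493, and 0.0747 under library sizes). FER3 (TRINITY_DN583_c1_g1), the symbol of a ferredoxin and not of a ferritin, went from 211, 116 and 67.6 in CK to 558, 1064 and 1129 in PVP (log2 fold change 2.80 ± 0.58, adjusted p = 0.0425). Its libraries did not overlap, and the adjusted p was 0.0511 under library sizes. The ferritin FRI3 (TRINITY_DN28_c0_g2) pointed up and was not called (log2 fold change 1.24, edgeR adjusted p = 0.184). The ferric reductase FRO4 (TRINITY_DN2109_c0_g1), which reduces iron for uptake, was the 1 called lower under library sizes, with 7.91, 11.9 and 11.4 in PVP and 15.7, 19.8 and 19.5 in CK. Metallothioneins, small proteins that bind copper and zinc, held no DEG among 13 under either scaling, with an unadjusted p under 0.05 for 2 higher and 2 lower, and DESeq2 called 2 higher and 1 lower. Their summed level under library sizes was lower in PVP without overlap, at 6176.8 to 7402.3 CPM of the library total against 7857.5 to 15804 in CK. The sum was not scaled by TMM, which raised PVP levels relative to CK, so this separation holds for library sizes alone. The 3 DEGs of metal handling came down to 1 without CK replicates 1 or 2 or PVP replicates 1 or 2, and to 0 without CK replicate 3 or PVP replicate 3.

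**Figure D3:**
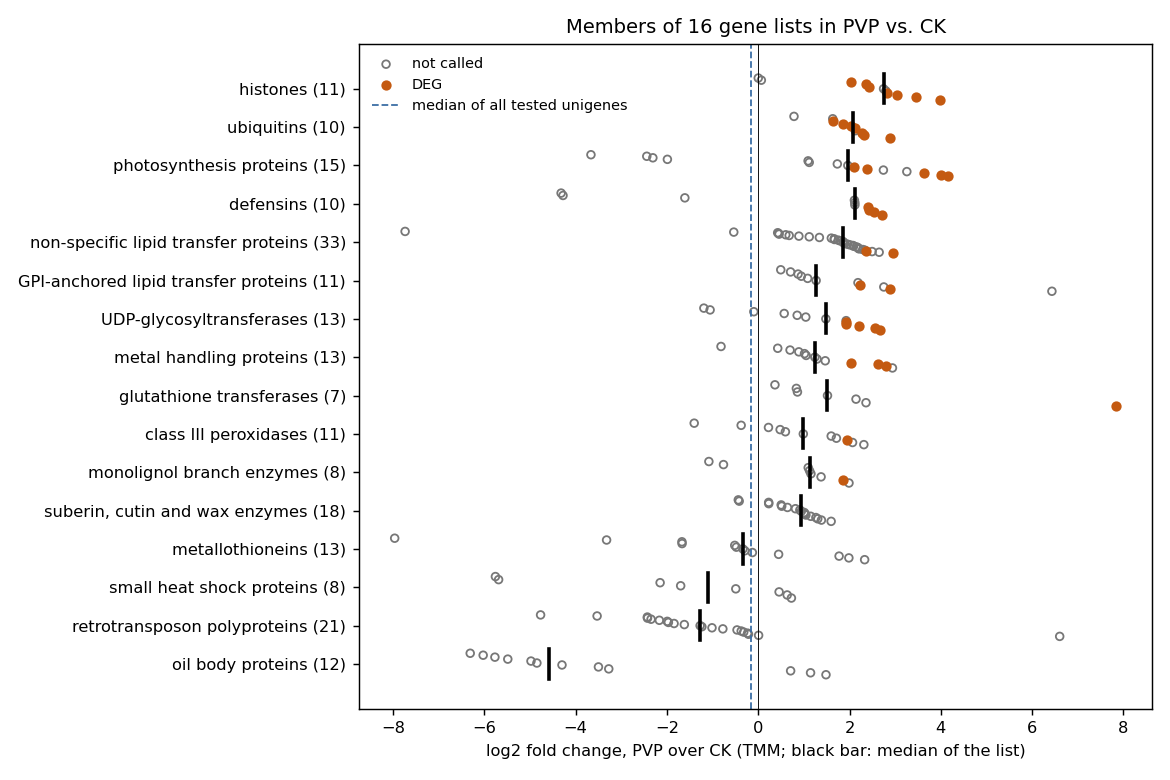
Log2 fold change of PVP over CK under TMM (x axis) for each member of 16 gene lists (y axis, number of members in brackets), filled where the member was a DEG, with a black bar at the list's median and a dashed line at the median of all tested unigenes of −0.16. Histone, ubiquitin and defensin medians lie between 2.07 and 2.75, and the members of oil body and heat shock lists that lie far left were high in CK replicate 2.

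Other named genes that rose included some of energy metabolism, the plastid ribosome and the cell wall. MPC1 (TRINITY_DN2119_c1_g1), a subunit of the carrier that brings pyruvate into mitochondria, went from 0.238, 3.32 and 0.427 TMM-scaled CPM in CK to 13.1, 37.8 and 44.8 in PVP (log2 fold change 4.61 ± 0.73, edgeR adjusted p = 0.0204). Pyruvate decarboxylase PDC (TRINITY_DN74623_c0_g1), the first enzyme of ethanol fermentation, had 2.84, 0.265 and 10.4 in PVP and 0.0297, 0.135 and 0 in CK. PVP replicate 2 was close to CK and PVP replicate 3 was the highest. PDC was the 1 DEG under TMM among 6 unigenes of fermentation enzymes and LBD41. The median log2 fold change of that list was −0.14 under TMM and −0.72 under library sizes. ASPG1 (TRINITY_DN57_c0_g1), an aspartic protease of guard cells in Arabidopsis, had 70.4, 39.9 and 44.4 in PVP and 14.4, 13.3 and 16.03 in CK (log2 fold change 1.82 ± 0.29). RR16 (TRINITY_DN453_c0_g1), the symbol of a ribosomal protein of plastids, rose from 29.1, 67.04 and 84.99 in CK to 357, 173 and 401 in PVP (log2 fold change 2.36 ± 0.44, adjusted p = 0.0318). AGP13 (TRINITY_DN4856_c0_g1), an arabinogalactan peptide of the cell wall, was the 1 DEG among 23 cell wall unigenes, with 6.14, 4.296 and 4.81 in PVP and 1.52, 0.314 and 1.63 in CK.

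Falling named genes included receptors, enzymes and regulators of hormone action. Among 10 unigenes listed under hormones, 1 rose and 2 fell under TMM, and 1 rose and 4 fell under library sizes. The 1 that rose was RR16, a plastid ribosomal protein that had been listed there by its symbol. PYL4 (TRINITY_DN3253_c0_g1), an abscisic acid receptor, had 49.3, 3.77 and 33.7 TMM-scaled CPM in CK and 2.62, 3.13 and 2.44 in PVP. CK replicates 1 and 3 were high, whereas CK replicate 2 was close to the PVP libraries (log2 fold change −3.40 ± 0.75, edgeR adjusted p = 0.0499). GAOX2 (TRINITY_DN65388_c0_g1), a gibberellin oxidase, fell from 1.605, 5.16 and 0.931 in CK to 0.0423, 0.371 and 0.313 in PVP (log2 fold change −3.43 ± 0.69). C14C2 (TRINITY_DN6959_c0_g1), a cytochrome P450 of the CYP714 family whose rice members act on gibberellins, had 91.6, 171 and 125 in CK and 39.7, 47.5 and 37.7 in PVP (log2 fold change −1.63 ± 0.34). The homeobox factor WOX8 (TRINITY_DN10993_c0_g1), which patterns the early embryo in Arabidopsis, had 5.14, 7.095 and 7.26 in CK and 2.41, 2.39 and 2.501 in PVP, with almost no spread among the PVP libraries (log2 fold change −1.41 ± 0.31, adjusted p = 0.0472). Another regulator, REM10 (TRINITY_DN2795_c0_g1) of the B3 domain family, fell from 2.64, 2.83 and 2.21 to 0.677, 0.583 and 0.313.

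Single genes of nitrogen, sugar and secondary metabolism fell, while the medians of their lists were above 0 under TMM. The log2 medians were 0.38 over 6 nitrogen unigenes, 0.90 over 5 sugar transporters and 0.74 over 12 unigenes of the CYP71 clan of cytochromes P450, and −0.27, 0.20 and 0.12 under library sizes. Over all named unigenes the medians were 0.71 and 0.075. Summed CYP71 levels were lower, at 612 to 661 CPM of the library total in PVP and 998 to 1272 in CK. Summed nitrogen levels were 285 to 439 in PVP and 476 to 522 in CK, also without overlap. Those of sugar transporters overlapped, at 72.0 to 174 and 33.1 to 93.5. None of these sums was scaled by TMM, which raised PVP levels relative to CK. Their order and their overlap, or lack of it, hold for library sizes alone. In each list 0 members rose and 1 fell under TMM, and 0 rose and 2, 2 and 1 fell under library sizes. Of the sugar transporters, 3 were higher and 2 lower at an unadjusted p under 0.05. Asparaginase ASPGB (TRINITY_DN4648_c0_g4), which releases ammonium from asparagine, the nitrogen carrier of germinating seedlings, had 51.2, 334 and 97.3 TMM-scaled CPM in CK and 9.56, 11.2 and 11.3 in PVP. The PVP libraries were tightly grouped and the lowest CK library was more than 4 times the highest of them (log2 fold change −3.91 ± 0.63, edgeR adjusted p = 0.0204). Of the 6 nitrogen unigenes, 1 was called lower without CK replicate 1 or 2, and 0 without any of the other 4 libraries. The sugar exporter SWET1 (TRINITY_DN9682_c0_g1), of the SWEET family, had 2.17, 3.86 and 1.397 in CK and 0.465, 0.477 and 0.375 in PVP (log2 fold change −2.46 ± 0.52). The ribose 5-phosphate isomerase RPI4 (TRINITY_DN1016_c0_g1), of the pentose phosphate cycle, fell from 19.3, 51.5 and 77.1 to 9.86, 8.01 and 9.88 (log2 fold change −2.41 ± 0.50). The cytochrome P450 C7113 (TRINITY_DN6_c0_g4), of the CYP71 clan, had 196, 734 and 454 in CK and 30.5, 57.5 and 87.7 in PVP, the only DEG among 12 members of that clan under TMM. MYOB6 (TRINITY_DN1003_c0_g1), which binds the myosins that drive streaming in plant cells, had 12.7, 10.3 and 12.4 in CK and 1.74, 3.29 and 2.44 in PVP with little spread (log2 fold change −2.25 ± 0.37). TRMB (TRINITY_DN1051_c0_g1), a tRNA methyltransferase, fell from 18.2, 27.5 and 26.2 to 6.73, 6.36 and 7.69. All 18 named unigenes that fell were called under library sizes too, with log2 fold changes of −4.38 for ASPGB and −4.15 for PYL4. Retrotransposon polyproteins, remnants of mobile elements, held no DEG among 21 under TMM (1 higher and 4 lower at an unadjusted p under 0.05) and 4 lower under library sizes, with a median log2 fold change of −1.27 under TMM.

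The seed reserve transcripts separated one CK library from the rest. Storage proteins, oil body proteins and late embryogenesis abundant (LEA) proteins accumulate in maturing seeds and their transcripts decline after germination. The albumin 2SS (TRINITY_DN7446_c0_g1) stood at 27.5, 27189 and 15.7 TMM-scaled CPM in CK and 11.7, 19.6 and 57.7 in PVP, so that CK replicate 2 alone was high. Over 24 reserve and seed maturation unigenes, CK replicate 2 had a summed level of 53211 CPM of the library total, with 404 and 460 in the other CK libraries and 276 to 763 in PVP. Under TMM edgeR called none of the storage and oil body unigenes, of which 5 of 5 storage unigenes had an unadjusted p under 0.05, whereas DESeq2 on all libraries called 4 of those 5 lower and on the 2 groups none. A pair of VICHY unigenes, vicianin hydrolase, had been listed with the storage proteins by their name and were left out of these sums after their values were seen. The 1 LEA unigene called under TMM, LEA5 (TRINITY_DN4874_c0_g1), rose, with 12.8, 28.5 and 25.9 in PVP and 4.99, 5.43 and 7.61 in CK. LEA5 was not called under library sizes (edgeR adjusted p = 0.0859). There, 1 storage unigene and 1 of the LEA list, PM1 (TRINITY_DN3000_c0_g1), were called lower. PM1 had 5.79, 751 and 0.699 in CK, so CK replicate 2 alone was high. Without CK replicate 2 the comparison gave 293 DEGs in place of 409, of which 170 were among the 409.

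**Figure D4:**
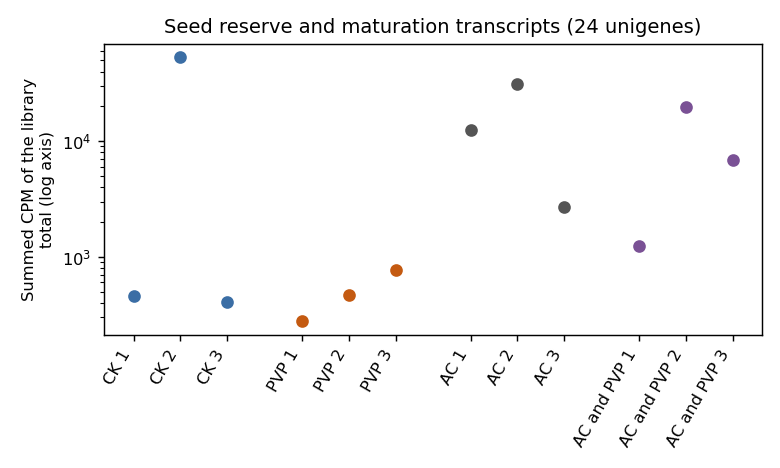
Summed CPM of the library total (y, log axis) over 24 seed reserve and maturation unigenes in each of the 12 libraries (x). CK replicate 2 stands at 53211, the other CK and the PVP libraries lie between 276 and 763, and the AC libraries and those with AC and PVP lie between 1252 and 31005.

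The largest falls and the most abundant unigene had no name. TRINITY_DN14585_c0_g1 had 90.7, 207 and 204 TMM-scaled CPM in CK and 0.296, 0.318 and 0.375 in PVP, a near-complete loss in all 3 PVP libraries (log2 fold change −8.97 ± 0.75, edgeR adjusted p = 0.000147, and −9.54 under library sizes). It stayed a DEG with any single PVP or CK library left out. TRINITY_DN9385_c0_g3 had 301 counts over the CK libraries and 1 over the PVP libraries, a ratio of 331 with a 95% counting interval of 59.0 to 13117. In the other direction, TRINITY_DN6462_c1_g1 had 139 counts in PVP and 1 in CK, a ratio of 126 with an interval of 22.3 to 5028, and TRINITY_DN4463_c0_g1 rose from 5.53, 5.703 and 7.14 to 63.5, 28.2 and 27.4 TMM-scaled CPM (log2 fold change 2.70 ± 0.37). TRINITY_DN1514_c0_g1 took 5.88% to 9.63% of all counts in the PVP libraries and 0.160% to 0.209% in CK. Its TMM-scaled CPM was 92021, 128040.0 and 76705 in PVP and 1429.6, 1530.2 and 1364 in CK, far apart in every library. It was called under library sizes (log2 fold change 5.48, adjusted p = 0.0275) but not under TMM (6.10 ± 1.5, adjusted p = 0.076). A pair of other very abundant unigenes were not called, TRINITY_DN301_c0_g1 at 55731, 86847 and 86976 in PVP and 24504, 37493 and 35614 in CK, and TRINITY_DN351_c0_g1 at 81946, 75542 and 60831 and 44249, 60888 and 42623, where CK replicate 2 reached the lowest PVP library.

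The effect of PVP without activated carbon was set beside its effect in its presence, AC and PVP minus AC, which shares no library with PVP vs. CK but used 2.5 g/L in place of 2 g/L of PVP. Of the 307 rising DEGs, 254 (82.7%) had a positive log2 fold change with AC, against 50.9% of all tested unigenes, and of the 102 falling DEGs, 93 (91.2%) had a negative one, against 44.4%. The sizes were smaller. The median log2 fold change of the rising DEGs was 2.45 without AC and 0.39 with it, and that of the falling DEGs was −2.01 without AC and −0.68 with it. Members chosen for a large difference in one contrast tend to show a smaller one elsewhere, so the drop in size is a description. None of the 409 was a DEG with AC, where edgeR called 4 unigenes in all. The test of the difference between the effects, the interaction of PVP and AC, called 1 unigene (0.00172%), with 4349 at an unadjusted p under 0.05.

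The 1 unigene was TRINITY_DN14585_c0_g1. It had 104, 118 and 119.6 TMM-scaled CPM in the AC libraries and 8.199, 66.02 and 58.2 in those with AC and PVP, with every library of AC and PVP below every AC library but a far smaller fall than with PVP alone (log2 fold change −1.37, log2 interaction 7.61, edgeR adjusted p = 0.0083). No unigene passed the interaction test without PVP replicate 1, without PVP replicate 2 or with filterByExpr, edgeR's own filter on low counts. H1 (TRINITY_DN2803_c0_g1) had a log2 fold change of 1.53 with AC against 2.81 without, PSBA (TRINITY_DN646_c2_g1) 1.87 against 4.0, and DEF (TRINITY_DN8257_c3_g1) 0.03 against 2.71. PRU1 (TRINITY_DN4037_c0_g1) had 1.73 against 3.98, and among falling genes ASPGB (TRINITY_DN4648_c0_g4) had 1.47 against −3.91. None of these differences passed the interaction test.

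**Figure D5:**
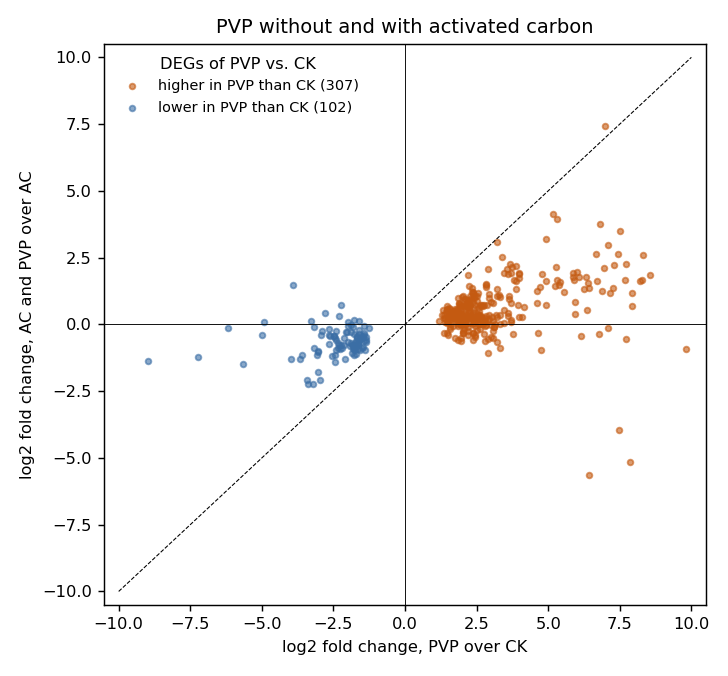
Log2 fold change of AC and PVP over AC (y axis) against that of PVP over CK (x axis) for the 307 higher and 102 lower DEGs of PVP vs. CK, with a dashed line of equal change. Most points lie on the same side of 0 on both axes, 254 of 307 and 93 of 102, and closer to 0 with AC. The falling DEG farthest from the line is TRINITY_DN14585_c0_g1 at −8.97.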

How the data were processed

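RNA-seq libraries of 12 samples were compared, 3 per group, grouped by their titles. Reads were trimmed (TrimGalore) and assembled de novo (Trinity) by the authors, who then aligned them to that assembly (Bowtie) and deposited RSEM's expected counts per unigene, not scaled for depth. Between 3.06% and 3.9% of the values of the PVP and CK libraries were not whole, and all were rounded. No reference genome was used.

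Unigenes with a deposited count above 0 in at least 3 libraries were fitted with edgeR 4.0.16 in R 4.3.3 (TMM, quasi-likelihood, all 12 libraries, no block, Benjamini-Hochberg adjustment over 58247 unigenes). Each SE was taken as |log2 fold change| over the root of the F statistic. Counting intervals at 95% and the floor of 3 counts cover counting error only. The test was checked on simulated counts. DESeq2 1.42.0, library sizes, RLE, other filters and dispersion options, the replicate block and each library left out were alternatives.

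The text names up to 20 named DEGs by p per direction, up to 4 members with the smallest p of each list described, PPO, 3 abundant unigenes without a name and 2 DEGs without a name per direction, from which it gives those with a known role. Other unigenes named are said to be chosen after their values were seen, or are members given beside their list. Members and lists were chosen with earlier results of these data known. Replicate numbers did not pair the samples: the correlations of same-numbered deviations were 0.15, −0.02 and −0.14.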

Additional observations from a re-analysis of the deposited data

Results flagged for a closer look

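One result met a rule for a closer look, that the effect of PVP differed with and without activated carbon by a test of the difference itself. For TRINITY_DN14585_c0_g1, which has no name, the log2 interaction of PVP and AC was 7.61. All 3 PVP libraries lay below all 3 CK libraries, and with AC all 3 libraries of AC and PVP lay below all 3 AC libraries, by less. With AC, AC and PVP replicate 1 was the lowest. The call was lost without PVP replicate 1, without PVP replicate 2 and with filterByExpr, where the interaction called 0 unigenes. The PVP dose differed between these contrasts, 2 g/L without AC and 2.5 g/L with it, and its part in the difference was not tested.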

How the results depend on the processing

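With library sizes only, DEGs in PVP vs. CK numbered 1145 (171 higher, 974 lower) in place of 409 (307 and 102), of which 248 were among the 409, and the interaction called 5 in place of 1. DESeq2 called 1626 on the 2 groups (1185 higher, 441 lower) and 1672 on all libraries (1178 and 494), of which 408 and 407 were among the 409. With filterByExpr the count was 833 (603 and 230, interaction 0), with no filter 2449 (1502 and 947, interaction 1382), and 408 of the 409 remained without a filter. Legacy and robust estimation gave interaction counts of 11 and 2, and robust estimation 200 lower DEGs. With the replicate number as a block, edgeR called 1324 (931 and 393, interaction 105), including all 409, although same-numbered samples did not deviate together. The cause of these differences was not tested. RLE factors, edgeR on 2 groups and the adjusted p alone stayed within 1.5 times of the total.

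Leaving out each library in turn gave 6 to 293 DEGs under TMM (3 to 226 higher, 3 to 67 lower) and 0 to 12 for the interaction, with every direction of the 409 kept. Under library sizes, an alternative added after the data were seen, leaving out CK replicates 1, 2 and 3 gave 344, 1403 and 241 (45, 183 and 37 higher, 299, 1220 and 204 lower), and leaving out PVP replicates 1, 2 and 3 gave 6, 27 and 65 (3, 22 and 30 higher, 3, 5 and 35 lower). Of 73 named results, library sizes turned the sign of 2 that were not called, TRINITY_DN351_c0_g1 to −0.010 and PPO (TRINITY_DN5115_c0_g1) to −0.33, and leaving out PVP replicate 2 turned PPO to −0.14, in a range of −0.14 to 0.75 over the libraries left out. No other alternative turned a sign. The interaction could not be fitted on 2 groups alone. Depth limits the unigenes with 1 to 3 counts in a group, whose counting intervals were wide (59.0 to 13117 for TRINITY_DN9385_c0_g3).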

Other observations

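Genes linked to drought and redox balance, chosen after their values were seen, also stood among the DEGs that rose. RD22 (TRINITY_DN20734_c0_g1), a gene of Arabidopsis that responds to drying, had 3.51, 1.27 and 2.501 TMM-scaled CPM in PVP and 0.0891, 0.135 and 0 in CK. ERD15 (TRINITY_DN9697_c1_g1), an early response gene to dehydration, had 1283, 2066 and 1655 in PVP and 329, 419 and 449 in CK (log2 fold change 2.06 ± 0.45, edgeR adjusted p = 0.0481). RCI2A (TRINITY_DN17092_c0_g1), a small membrane protein induced by cold, had 149, 162 and 183 in PVP and 33.8, 53.3 and 43.4 in CK. The groups of all 3 genes did not overlap.

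The thiol proteins TRXH (thioredoxin h) and GLRX (glutaredoxin), which reduce disulfide bonds, rose together. TRXH (TRINITY_DN32615_c0_g1) had 118, 223 and 163 TMM-scaled CPM in PVP and 47.6, 50.7 and 38.1 in CK (log2 fold change 1.88 ± 0.31), and GLRX (TRINITY_DN2730_c0_g1) had 225, 529 and 376 and 51.2, 103 and 37.9 (log2 fold change 2.56 ± 0.43). Under library sizes GLRX was called (adjusted p = 0.0207) and TRXH was not (adjusted p = 0.0598). The cysteine-rich receptor-like kinase CRK25 (TRINITY_DN1463_c0_g1) had 222, 318 and 351 in PVP and 69.6, 51.7 and 95.7 in CK, and the osmotin-like OLP1 (TRINITY_DN1718_c0_g1), of the thaumatin-like family, had 94.2, 68.3 and 94.97 and 10.7, 28.8 and 10.8.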
